A study of Mus musculus with 29 samples.

Results

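CpG-dense stretches of the genome that are nevertheless heavily methylated in lung were examined in a whole-genome methyl-sequencing table of 29 mouse libraries. Each value of the table is a percent methylation (%DNAm) over a window that overlaps a gene. A window was a member when it lay on chromosomes 1 to 19, spanned at most 1500 bp, had a value in all 29 libraries, and averaged at least 70 %DNAm over the 14 libraries that were not challenged with ovalbumin. Because the authors drew windows to hold a set number of CpG cytosines (median 50 CpG dinucleotides in these windows), a short window is a CpG-dense one. This rule found 1168 members among 20035 short autosomal windows with complete values, of 260686 windows in the table and 259167 tested. A further 76 short windows reached the level but lacked a value in some library. Members were chosen by these measured levels, so their high methylation is a description and no finding.

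The libraries came from lung (labelled RML) of female Balb/c offspring aged 13 weeks. Dams received intranasal saline (Sham) or fine particulate matter, PM2.5 (PM), before mating, through gestation and until weaning, and the offspring were then sensitised and challenged with ovalbumin (OVA) to induce allergic airways disease or were left without OVA. Without OVA there were 7 Sham and 7 PM libraries, and with it 7 (Sham-OVA) and 8 (PM-OVA). The labels do not tie libraries to litters, so the p-values measure the spread between these animals. Lung tissue is a mixture, and a change in the share of a cell type and a change of methylation within cells cannot be told apart. The table gives no read depth per window. Sham replicate 1 had values in 1224 windows of the Y chromosome, against 29 to 46 in the other libraries, which goes against a female animal. Where a described window lost its call in Sham offspring without it, the value without it is given. At annotated starts, 39 windows of 29 lung structural cell genes (epithelial, endothelial and mesenchymal) had a median of 47.02% (0.294 to 79.996%). The 6 genes listed to check the lung label (the surfactant protein genes Sftpa1, Sftpb, Sftpc and Sftpd, the lung transcription factor Nkx2-1 and the club cell gene Scgb1a1) had a median of 72.2%, beside 70.1% (5.81 to 82.3%) over 22 windows of 18 genes of other tissues. CpG-dense starts of epithelial genes were nearly unmethylated, at 1.58% in Nkx2-1, 0.381% in Hopx, 0.429% in Abca3, 1.85 and 3.50% in Aqp5, 1.26% in Cdh1 and 3.42% in Epcam, whereas Sftpc, without a dense start, was at 72.3%. The CpG-dense start of Neurod1, from the genes of other tissues, was also low, at 5.81%. Most dense windows were low, so these levels do not tell lung from other tissues.

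As background, CpGs are depleted from most of the mouse genome because methylated cytosines mutate readily, and the CpG-dense remainder is largely made of CpG islands at gene starts, which stay unmethylated. Dense sequence that is methylated in adult tissue belongs to a few known classes. Transposable elements are silenced by DNA methylation, protein-coding exons within transcribed genes are commonly methylated, and the promoters of a set of germ cell genes are methylated in somatic cells early in development and remain so.

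The short windows fell into a very unequal pair of peaks. Of the 20035, 17784 averaged at most 20% without OVA, 1083 lay between 20 and 70%, and 1168 were members, whose unchallenged means ran from 70.1 to 99.3% with a median of 92.2%. In all, 719 members (61.6%) were at 90% or more, 305 between 80 and 90%, and 144 between 70 and 80%. Just inside the threshold stood windows of the protocadherin gene Pcdhb4 (named Gm42416 in the table, 70.1%), of Ubtf, a nucleolar transcription factor (70.3%), and of Gm10254 (70.3%). Just below 70% stood windows of Abcg8, a sterol transporter (69.97%), Skida1 (69.8%) and Rai1 (69.8%). The highest members were an intronic window of Rsrc1 (99.3%), an intronic window of Rapgef6 (98.7%) and an exonic window of Celsr2, an atypical cadherin (98.5%).

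**Figure D1:**
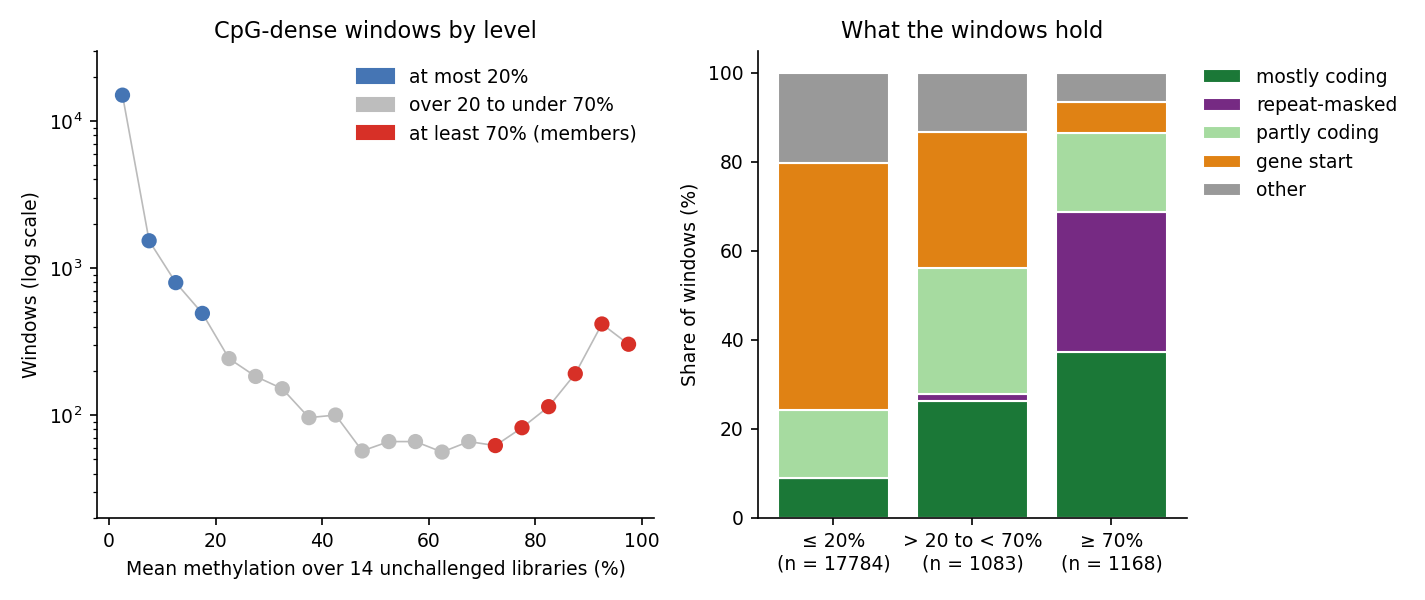
Left, the number of CpG-dense autosomal windows (log scale) in bands of 5 percentage points of mean methylation over the 14 unchallenged libraries, with members in red. Right, the share of windows (%) of each kind in 3 classes of that level, where gene starts make up 55.7% of the lowest class and 6.93% of the members.

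What the members hold differed from what the unmethylated dense windows hold, by the GENCODE M21 annotation and the GRCm38 sequence, neither of which the rule used. At least 1 annotated transcript start lay in 81 members (6.93%), against 55.7% of the windows at or under 20% and 30.5% of those in between. Coding sequence took up most of 435 members (37.2%, against 8.92 and 26.2%). Sequence that the reference marks as repetitive took up over 50% of 367 further members (31.4%, against 0.0337 and 1.66%). Another 208 members were partly coding and 77 were none of these. These 5 kinds, assigned in the order gene start, mostly coding, repeat-masked, partly coding and other, are used below. Windows share sequence and genes, so the shares describe this genome and were not tested.

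Members were also less dense than the unmethylated windows. Their median length was 1232 bp, against 595 bp at or under 20% and 1194 bp in between. The ratio of observed to expected CpGs had a median of 0.567, against 0.814 and 0.562, and GC content one of 57.4%, against 65.1 and 57.3%. A coding exon of at least 1000 bp touched 373 members (31.9%), against 4.70% of the windows at or under 20%.

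Some genes held many members each. Plec, which encodes the cytoskeletal linker plectin, had 13 members, of which 12 were mostly coding, at 93.2 to 98.4% without OVA. Fat1, an atypical cadherin, had 9 at 93.9 to 97.8%. Zfhx3, a homeodomain and zinc finger transcription factor, had 8 at 89.1 to 98.1%, and Ahnak2 had 7 at 86.6 to 90.96%. The OVA differences of the Plec windows lay between -0.146 and 1.94 points in Sham and between -0.596 and 2.15 points in PM offspring. The 16 members that the file names Galnt2l lie along Gm20388, a readthrough transcript in GENCODE, and over other genes such as Gse1, Zfpm1, Ankrd11 and Def8, which are named here instead.

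Many repeat-masked members were copies of each other. Windows that shared at least 20% of their 25-base words were joined, and 349 members (29.9%) fell into 5 families of at least 10, with 141 (A), 102 (B), 65 (C), 28 (D) and 13 (E) windows in 135, 84, 58, 23 and 13 named genes. The reference used here marks repeats without naming them, so the families have letters only. The commonest word of each of the 3 largest families is shown in capitals, within 40 bases on each side, because it is the sequence that ties these scattered windows together.
repeat family A, Rnf157 window: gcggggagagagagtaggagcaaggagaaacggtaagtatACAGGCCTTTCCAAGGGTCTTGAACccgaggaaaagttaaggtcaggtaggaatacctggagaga
repeat family B, Cyp2c38 window: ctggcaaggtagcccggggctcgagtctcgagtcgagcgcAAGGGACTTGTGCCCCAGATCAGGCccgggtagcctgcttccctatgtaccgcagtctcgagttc
repeat family C, Gm26713 window: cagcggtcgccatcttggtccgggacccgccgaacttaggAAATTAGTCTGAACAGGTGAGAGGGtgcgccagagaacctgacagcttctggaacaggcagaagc
All 3 are GRCm38 sequence, from chr11:116390250-116390354 on the plus strand, chr19:39412989-39413093 on the minus strand and chr9:80957159-80957263 on the minus strand. The word of family A was present without a mismatch in 100 of its 141 members, that of family B in 80 of 102, and that of family C in 65 of 65 and in 3 members outside it. Reads from copies this alike can map to more than 1 place, and the authors' handling of such reads is not given in the sources used here.

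Families A and B had median levels of 95.5 and 94.7% without OVA, and C, D and E of 92.1, 94.4 and 93.6%. All the kinds of member were nearly uniform between animals, with a median within-group SD of 1.62 points over the 29 libraries. It was lowest in mostly coding members (1.37) and highest in families B (2.33) and C (2.69).

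Starts of germ cell genes were among the members. Of a list of 36 such genes, 13 had an annotated start in a CpG-dense window, and for 9 of them that window was a member. These were Dazl, an RNA-binding protein of germ cells (96.8% without OVA), the synaptonemal complex genes Sycp1 (90.6%) and Sycp2 (83.98%), Fkbp6 (89.99%), the genes of the piRNA pathway Mov10l1 (88.2%), Mael (86.1%), Ddx4 (84.9%) and Tdrd1 (72.8%), and the testis helicase gene D1Pas1 (84.6%, in a window named Gm37912). The other CpG-dense starts of the list were those of Tex14 (60.2%), Meioc (49.5%), Smc1b (14.6%) and Tdrd6 (2.20%), so that methylation of these starts was not general. Beyond the list, and chosen after the values were seen, member windows also held starts of Stra8, which drives entry into meiosis (93.9%), Hsf5 (89.6%), Zglp1 (87.4%) and the oocyte factor Figla (84.4%).

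The bases just before the start are shown for 3 of these genes, on the gene's own strand, with every CpG in capitals, since these are the sites whose methylation the window values average.
Dazl gene start: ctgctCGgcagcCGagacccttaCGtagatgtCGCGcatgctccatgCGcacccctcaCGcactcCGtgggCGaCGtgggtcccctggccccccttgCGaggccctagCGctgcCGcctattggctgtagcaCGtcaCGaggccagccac
Sycp1 gene start: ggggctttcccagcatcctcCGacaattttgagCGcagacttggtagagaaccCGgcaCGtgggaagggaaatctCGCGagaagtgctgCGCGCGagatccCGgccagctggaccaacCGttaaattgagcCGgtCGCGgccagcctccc
Mael gene start: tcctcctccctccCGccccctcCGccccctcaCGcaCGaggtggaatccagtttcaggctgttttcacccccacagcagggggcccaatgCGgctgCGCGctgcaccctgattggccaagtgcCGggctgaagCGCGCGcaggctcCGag
They lie at chr17:50293637-50293786, chr3:102936101-102936250 and chr1:166238748-166238897 (GRCm38, minus strand) and hold 15, 14 and 12 CpGs in 150 bases. At Dazl the boundary was abrupt. Its member window (chromosome 17 from 50293327 to 50293849) averaged 96.8%, whereas the adjacent window inside the gene (50292789 to 50293264), which holds another annotated start, averaged 13.3%.

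Motifs known from such promoters were counted on both strands, with any overlap at their ends allowed, in RefSeq promoters of 300 bases (GRCm38, 250 before and 50 after the start). CACGTG, an E-box, occurred in 8 of the 12 promoters of the 9 germ cell members (66.7%), belonging to Ddx4, Fkbp6, Mael, Mov10l1, Sycp1 and Tdrd1. The share was 7.15% over all 32851 promoters and 10.2% for genes starting in a dense window at or under 20%. TCCCGC, part of an E2F site, occurred in 4 of the same 12 promoters (33.3%), against 19.98% of all promoters and 40.01% for starts in dense windows at or under 20%. A match is a run of letters and says nothing of binding, and the promoters of 1 gene overlap.

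Group levels over all members lay within 1 point of each other. In Sham the mean over the 1168 members was 89.7% ± 0.301 (SD, n = 7), and in Sham-OVA it was 90.3% ± 0.429 (SD, n = 7). In PM it was 90.1% ± 0.367 (SD, n = 7), against 90.2% ± 0.387 (SD, n = 8) with OVA. The libraries of the 4 groups ran from 89.3 to 90.1, 89.5 to 90.9, 89.5 to 90.6 and 89.7 to 90.7%, so all of them overlapped. Within that, the kinds parted. In Sham offspring mostly coding members averaged 88.9% ± 0.304 without and 89.9% ± 0.497 with OVA (SD, n = 7 each), and repeat-masked members 93.3% ± 0.394 and 92.997% ± 0.378 (SD, n = 7 each).

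The effect of OVA was then tested window by window. Windows with a limma adjusted p under 0.05 over all 259167 tested windows, whose group means also lay 10 percentage points or more apart, are called differentially methylated regions (DMRs). In Sham offspring 7 members were DMRs (6 higher and 1 lower after OVA), and in PM offspring 3 (2 higher and 1 lower). The background over all tested windows was 0.775% in Sham (0.479% higher and 0.296% lower) and 0.584% in PM offspring (0.263% higher and 0.321% lower), against 7 and 3 of the 1168 members. Without Sham replicate 1 the count in Sham offspring was 5, and without Sham-OVA replicate 2 or 5 it was 11 or 12. A window cannot exceed 100%, so the 719 members at 90% or more had at most 10 points in which to rise. All 9 DMR windows started between 70 and 80%, and with the level limit at 80% no member was a DMR by limma in either comparison, although 91 members between 80 and 90% and 34 from 90% upward passed the adjusted p for higher values in Sham offspring.

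Without a minimum difference, 202 members passed the adjusted p in Sham offspring as higher (17.3%, background 13.3%) and 102 lower (8.73%, background 22.3%). In PM offspring 123 were higher (10.5%, background 9.26%) and 165 lower (14.1%, background 34.8%). The median difference over the members was 0.119 points in Sham and -0.208 in PM, beside -0.414 and -1.03 points over all tested windows. In Sham offspring the median was 0.00460 without Sham replicate 7, 0.0380 without Sham-OVA replicate 1, 0.191 without Sham replicate 3 and 0.294 points without Sham-OVA replicate 5, and in PM offspring -0.133 points without PM replicate 1. With centred libraries, described next, the medians were 0.515 and 0.771 points. The split depends on scale. With each library centred on its median difference from the mean of all libraries, which moves the median of all windows to -0.0179 and -0.0514 points, the higher share of the members that passed went from 66.4 to 73.1% in Sham and from 42.7 to 67.96% in PM offspring. Over all windows that share went from 37.3 to 50.7% and from 21.02 to 50.3%. Without Sham replicate 1, 181 members were higher and 96 lower in Sham offspring.

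The direction went with the starting level. Of the 144 members between 70 and 80%, 77 (53.5%) were higher and 9 (6.25%) lower in Sham offspring, with a median difference of 4.02 points. Of the 719 at 90% or more, 34 (4.73%) were higher and 77 (10.7%) lower, with a median of -0.378. PM offspring gave 38.9% higher and 9.72% lower between 70 and 80%, and 1.53% higher and 17.8% lower from 90%. The unchallenged columns both set the level and enter the difference, so the bands were also drawn from the other kind of offspring alone, in an alternative chosen after seeing the data. Between 70 and 80% in PM, 53.03% of 132 members were then higher in Sham offspring, and between 70 and 80% in Sham, 38.7% of 142 were higher in PM offspring.

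Longer autosomal windows at the same levels, which are poorer in CpGs, were more often lower than higher. Of 74070 such windows between 70 and 80%, 12.4% were higher and 22.5% lower in Sham offspring (median -0.663 points), and 7.64% were higher and 38.8% lower in PM offspring (median -1.47). CpG-dense windows between 20 and 70% were, like the members between 70 and 80%, more often higher. Of these 1083 windows, 39.4% were higher and 9.88% lower in Sham offspring (median 2.16 points). In PM offspring 31.3% were higher and 11.6% lower (median 1.19 points). The differences between members and these other windows are a description and were not tested.

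**Figure D2:**
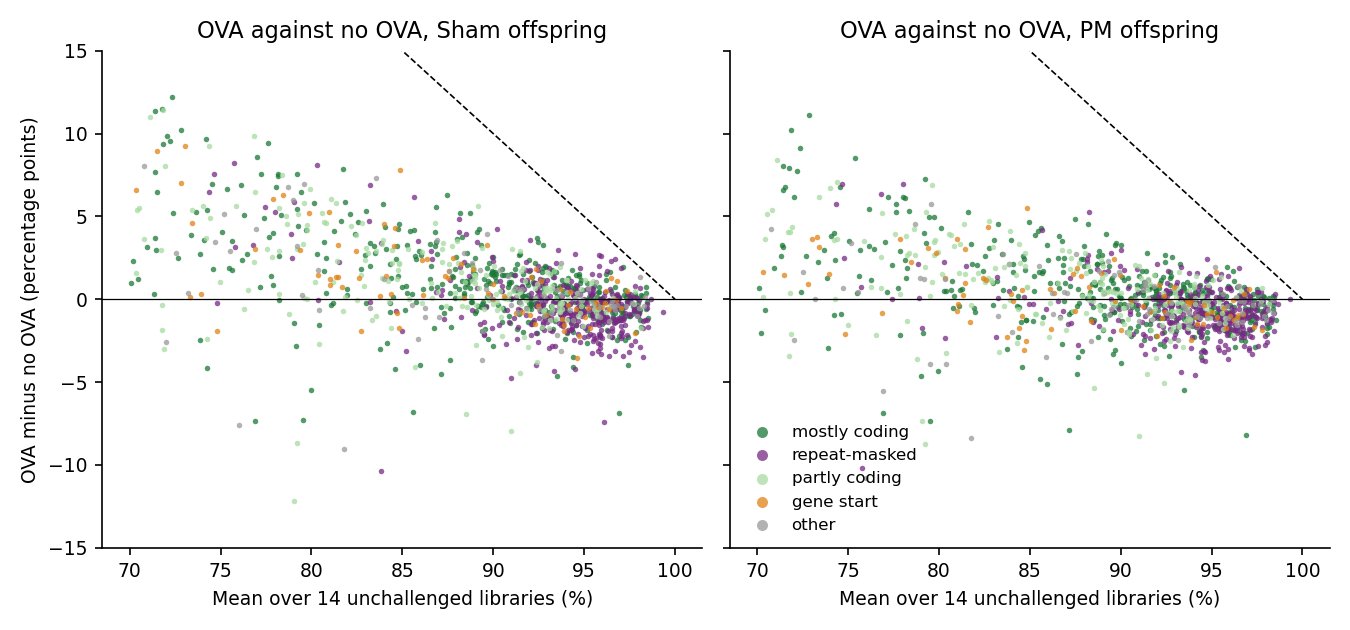
OVA minus no OVA (percentage points) against the mean of the 14 unchallenged libraries (%) for each of the 1168 members, in Sham offspring (left) and PM offspring (right), coloured by kind. The dashed line is the largest rise that 100% allows, and the points from 70 to 80% have a median of 4.02 points on the left and 2.67 points on the right.

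By kind, mostly coding members had a median difference of 0.551 points in Sham and 0.174 in PM offspring. In Sham offspring 105 of the 435 were higher and 47 lower (24.1 and 10.8%), and in PM offspring 70 and 75 (16.1 and 17.2%). Over all tested windows 13.3% were higher and 22.3% lower in Sham offspring, and 9.26 and 34.8% in PM offspring. Partly coding members had medians of 0.624 and 0.385 points, with 59 of 208 higher and 15 lower in Sham offspring and 42 and 29 in PM offspring. Members at gene starts had medians of 0.645 and -0.0911, with 18 of 81 higher and 5 lower in Sham offspring and 3 and 10 in PM offspring. The 77 members of no other kind had medians of -0.0802 and -0.396, with 9 higher and 5 lower in Sham offspring and 5 and 8 in PM offspring. The scale moved these values, and those of all 259167 tested windows. Centring put 47398 of all windows higher and 46081 lower in Sham offspring, and 49015 and 48372 in PM offspring. With centred libraries mostly coding members had medians of 0.947 and 1.15 points, with 122 higher and 38 lower in Sham offspring and 110 and 53 in PM offspring, so the near even split in PM offspring rested on the scale. Partly coding members then had medians of 1.02 and 1.36 points, with 74 higher and 13 lower in PM offspring, and gene starts 1.04 and 0.888 points, with 12 and 5 in PM offspring. The last kind had 0.316 and 0.583 points, so its signs, and that of gene starts in PM offspring, turned with the scale.

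Repeat-masked members, which started highest, were more often lower than higher on the deposited scale, though less often lower than windows at large. In Sham offspring 11 of the 367 were higher and 30 lower, and in PM offspring 3 and 43. The lower shares were 8.17 and 11.7%, beside 22.3 and 34.8% of all tested windows and 27.8 and 40.2% of longer windows from 90%, a description that was not tested. Their median differences were -0.573 and -0.847 points, which became -0.177 and 0.132 with centred libraries, so the sign in PM offspring rested on the scale. By family, A had medians of -0.732 and -0.936 points, B of -0.641 and -0.9998, D of -1.12 and -1.22, and E of -1.20 and -0.894. Family C, which started lower, had medians of 0.517 and -0.0544, with 7 of 65 windows higher in Sham and 2 higher in PM offspring. These shares were 10.8 and 3.08%, beside 13.3 and 9.26% of all tested windows. With centred libraries the medians were -0.336 and 0.0431 points in A, -0.245 and -0.0204 in B, and 0.912 and 0.925 in C. They were -0.727 and -0.240 in D and -0.803 and 0.0850 in E, so the signs of A, C and E in PM offspring turned. No repeat-masked member was a DMR in either comparison by limma.

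Windows of immune cell genes stood lower in the OVA libraries, without overlap. The 196 tested windows of a 30-gene immune list, none of them a member, averaged 62.5 to 63.5% over Sham libraries, 61.1 to 62.3% with OVA, 62.9 to 64.02% over PM libraries and 61.2 to 61.9% with OVA. The 254 windows of a 30-gene list of lung structural cells, also without a member, averaged 62.9 to 64.3%, 63.4 to 65.2%, 62.9 to 64.9% and 63.1 to 64.6%. Other lists were also apart in PM offspring. The collagen list ran from 71.98 to 73.7% in PM and from 70.4 to 71.8% in PM-OVA. The microRNA list ran from 64.5 to 65.98% and from 62.8 to 63.9%. Both lists overlapped in Sham offspring. The mean over all tested windows went from 69.1 to 68.8% with OVA in Sham and from 69.4 to 68.4% in PM offspring. The part of cell composition in the members' differences was not tested.

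Zfp46, which encodes a zinc finger protein, had the one window that was a DMR in both kinds of offspring, on chromosome 4 from 136290394 to 136290888 (GRCm38), 495 bp that are coding throughout. From lowest through median to highest, libraries were at 65.3, 74.4 and 76.8% in Sham, 78.5, 84.2 and 87.1% in Sham-OVA, 70.7, 71.8 and 74.6% in PM and at 78.2, 82.7 and 89.7% in PM-OVA. No library of an OVA group overlapped its unchallenged group. PM offspring differed by 11.1 points (log2 ratio 0.95, SE 0.15, limma adjusted p = 8.47e-06), and Sham offspring by 10.2 points (limma adjusted p = 6.63e-05). Without Sham replicate 1 the difference in Sham offspring was 8.93 points (limma adjusted p = 2.30e-04), under the limit of 10 points. It was also under that limit without Sham replicate 4 or Sham-OVA replicate 2, 3 or 6 (9.63 to 9.95 points). Irgq, a relative of the immunity-related GTPases, had the largest rise in Sham offspring, in a coding window on chromosome 7 from 24533855 to 24534278. Lowest, median and highest library values were 63.4, 72.1 and 74.3% in Sham, 77.3, 83.2 and 87.5% in Sham-OVA, 70.6, 73.9 and 77.05% in PM and at 76.7, 83.2 and 88.5% in PM-OVA. OVA and unchallenged libraries did not overlap in Sham offspring and overlapped in PM offspring. With OVA, Sham offspring differed by 12.2 points (log2 ratio 0.99, SE 0.15, limma adjusted p = 1.02e-05), and PM offspring by 9.15 points (limma adjusted p = 8.13e-05). Without Sham replicate 1 the rise in Sham offspring was 10.97 points (limma adjusted p = 3.66e-05).

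The stretches of these windows with most CpGs outside untranslated exons are shown, on the plus strand and with each CpG in capitals, as examples of dense methylated coding sequence that rose.
Zfp46 window: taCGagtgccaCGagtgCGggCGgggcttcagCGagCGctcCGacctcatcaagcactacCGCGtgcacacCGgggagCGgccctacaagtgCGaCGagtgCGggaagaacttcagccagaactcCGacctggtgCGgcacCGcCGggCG
Irgq window: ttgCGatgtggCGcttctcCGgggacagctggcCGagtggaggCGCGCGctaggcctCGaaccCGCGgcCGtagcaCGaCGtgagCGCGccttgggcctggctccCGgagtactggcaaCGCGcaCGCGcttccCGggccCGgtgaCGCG
They lie at chr4:136290634-136290783 and chr7:24534124-24534273 (GRCm38) and hold 19 and 24 CpGs in 150 bases.

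A DMR on chromosome 7 from 13007517 to 13008099, which the table names Trim28, lies wholly in coding sequence of Zbtb45, a zinc finger protein, by GENCODE M21. The lowest, median and highest libraries stood at 65.4, 69.5 and 76.4% in Sham, 78.8, 83.9 and 84.9% in Sham-OVA, 66.5, 72.97 and 77.1% in PM and at 76.6, 80.8 and 84.6% in PM-OVA. Groups with and without OVA were apart in Sham offspring and overlapped in PM offspring. Sham offspring differed by 11.5 points (log2 ratio 0.91, SE 0.13, limma adjusted p = 3.97e-06), and PM offspring by 7.90 points (limma adjusted p = 2.35e-04). Kdm6b, a demethylase of histone H3 lysine 27, had a partly coding DMR on chromosome 11 from 69399446 to 69399981. From lowest through median to highest, libraries were at 67.4, 71.4 and 74.2% in Sham, 73.6, 82.1 and 89.2% in Sham-OVA, 67.7, 70.6 and 77.3% in PM and at 73.7, 80.2 and 83.97% in PM-OVA. In both kinds of offspring the ranges with and without OVA overlapped. With OVA, Sham offspring differed by 11.002 points (log2 ratio 0.92, SE 0.17, limma adjusted p = 1.37e-04), and PM offspring by 8.41 points (limma adjusted p = 0.00257). PM replicate 4 stood apart in the Kdm6b window at 77.3%, beside 67.7 to 71.5% in the other PM libraries. Without Sham-OVA replicate 6 the Kdm6b difference in Sham offspring was 9.81 points, under the limit.

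Arhgap23, a GTPase-activating protein, had the DMR with most CpGs per base of all members (16.1 per 100 bp), a coding window on chromosome 11 from 97500374 to 97500684. Lowest, median and highest library values were 61.4, 71.5 and 77.4% in Sham, 76.95, 81.4 and 89.3% in Sham-OVA, 69.2, 72.4 and 74.5% in PM and at 74.8, 80.6 and 89.4% in PM-OVA. OVA and unchallenged libraries overlapped in Sham offspring and did not in PM offspring. Sham offspring differed by 11.4 points (log2 ratio 0.91, SE 0.18, limma adjusted p = 3.46e-04), and PM offspring by 8.03 points (limma adjusted p = 0.00394). Without Sham replicate 1 the difference in Sham offspring was 9.80 points (limma adjusted p = 0.00121), under the limit. A partly coding window over Gdf5, a ligand of the bone morphogenetic protein family, and the overlapping Gm15557, for which the file names it, was a DMR in Sham offspring (chromosome 2 from 155941791 to 155943266). The lowest, median and highest libraries stood at 62.5, 70.2 and 72.7% in Sham, 77.9, 81.6 and 85.6% in Sham-OVA, 66.5, 73.8 and 80.05% in PM and at 72.2, 76.7 and 83.3% in PM-OVA. Groups with and without OVA were apart in Sham offspring and overlapped in PM offspring. With OVA, Sham offspring differed by 11.4 points (log2 ratio 0.88, SE 0.14, limma adjusted p = 2.26e-05), and PM offspring by 4.05 points (limma adjusted p = 0.0632). The interaction, which asks whether the OVA difference depended on the dam, was -7.37 points (limma adjusted p = 0.577). Adgra2, an adhesion receptor of vessel growth, had a coding DMR in PM offspring on chromosome 8 from 27121284 to 27121871. From lowest through median to highest, libraries were at 70.6, 73.04 and 76.4% in Sham, 76.5, 82.1 and 87.5% in Sham-OVA, 66.2, 70.01 and 79.2% in PM and at 75.6, 80.6 and 86.997% in PM-OVA. Groups with and without OVA were apart in Sham offspring and overlapped in PM offspring. PM offspring differed by 10.2 points (log2 ratio 0.80, SE 0.16, limma adjusted p = 1.80e-04), and Sham offspring by 9.35 points (limma adjusted p = 4.14e-04). The difference in PM offspring was under 10 points without any one of PM replicates 1, 2 and 5 and PM-OVA replicates 2, 3 and 7 (9.37 to 9.94 points).

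The next most CpG-dense members after Arhgap23 were coding windows of Shroom3, an actin-binding protein (13.5 CpGs per 100 bp), and Clasrp, a splicing regulator (13.2). The Arhgap23 window is shown on the plus strand, CpGs in capitals, as sequence of CpG island density that was nonetheless methylated.
Arhgap23 window: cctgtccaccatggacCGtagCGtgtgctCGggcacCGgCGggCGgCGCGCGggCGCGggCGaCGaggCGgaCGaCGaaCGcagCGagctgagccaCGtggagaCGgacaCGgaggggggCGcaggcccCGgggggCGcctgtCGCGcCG
It lies at chr11:97500402-97500551 (GRCm38). The Clasrp window rose from 86.8% ± 1.91 without to 93.1% ± 1.36 with OVA in Sham offspring (SD, n = 7 and n = 7) and from 88.2% ± 1.39 without to 92.997% ± 1.61 with OVA in PM offspring (SD, n = 7 and n = 8), without overlap in either (differences 6.31 points, limma adjusted p = 2.38e-06 and 4.84 points, limma adjusted p = 1.69e-05). The Shroom3 window rose by less, 2.76 points (limma adjusted p = 0.0181) and 2.81 points (limma adjusted p = 0.0171). Its difference in Sham offspring was 2.16 points (limma adjusted p = 0.0499) without Sham replicate 1, and 2.40 points (limma adjusted p = 0.0525) without Sham-OVA replicate 3, where the call was lost.

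**Figure D3:**
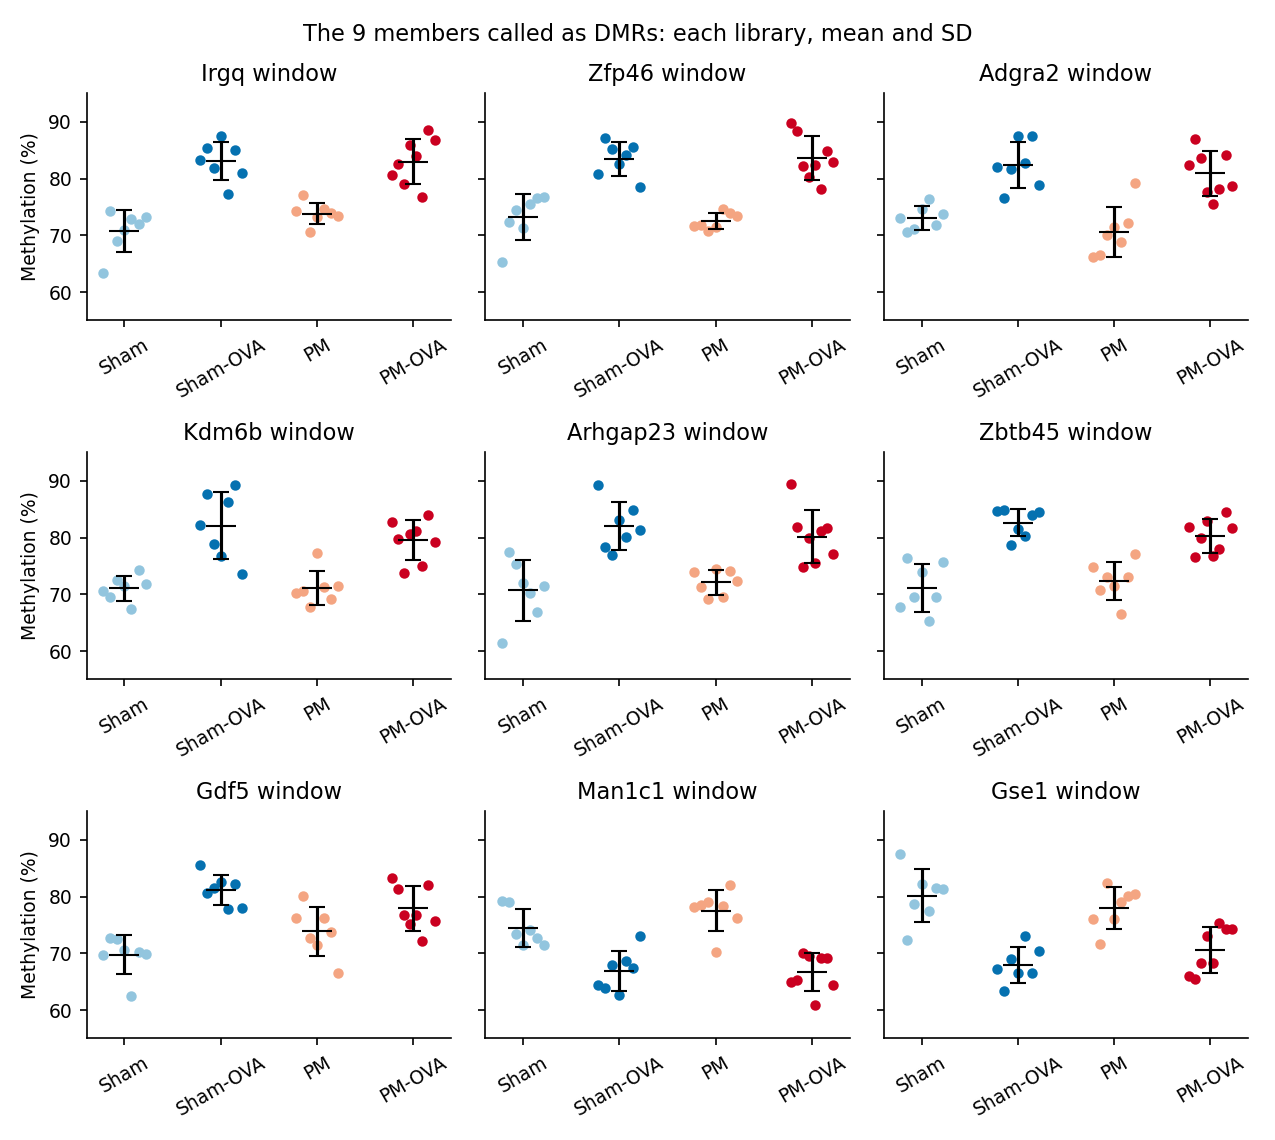
Methylation (%) of the 9 members called as DMRs in each of the 29 libraries (points, by group), with the group mean and SD in black. In 7 windows the OVA groups have higher means than the unchallenged groups in both kinds of offspring, and in the Man1c1 and Gse1 windows they have lower means.

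Of the 9 DMRs, 2 were lower after OVA. The window of Gse1, a coiled-coil protein, on chromosome 8 from 120572332 to 120573727 (file name Galnt2l) has 356 coding bp of 1396. Lowest, median and highest library values were 72.4, 81.3 and 87.5% in Sham, 63.3, 67.2 and 73.1% in Sham-OVA, 71.6, 79.01 and 82.5% in PM and at 65.4, 70.7 and 75.4% in PM-OVA. OVA and unchallenged libraries overlapped in both kinds of offspring. With OVA, Sham offspring differed by -12.2 points (log2 ratio -0.92, SE 0.15, limma adjusted p = 3.28e-05), and PM offspring by -7.35 points (limma adjusted p = 0.00382). Without Sham replicate 1 the difference in Sham offspring was -10.9 points (limma adjusted p = 7.90e-05). The next window, which starts 49 bp further on and is also a member, went from 74.7% ± 2.36 without to 80.4% ± 1.33 with OVA in Sham offspring (SD, n = 7 and n = 7) and from 73.3% ± 2.73 without to 79.98% ± 2.38 with OVA in PM offspring (SD, n = 7 and n = 8). Its differences were 5.62 points (limma adjusted p = 4.04e-04) and 6.70 points (limma adjusted p = 3.19e-05), so the 2 adjacent members moved in opposite directions in both kinds of offspring.

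Man1c1, a Golgi mannosidase that trims N-glycans, had an intronic DMR on chromosome 4 from 134671022 to 134672488. The lowest, median and highest libraries stood at 71.4, 73.4 and 79.3% in Sham, 62.7, 67.5 and 73.1% in Sham-OVA, 70.3, 78.3 and 82.1% in PM and at 60.9, 67.2 and 70.1% in PM-OVA. OVA and unchallenged libraries overlapped in Sham offspring and did not in PM offspring. PM offspring differed by -10.8 points (log2 ratio -0.77, SE 0.12, limma adjusted p = 9.26e-06), and Sham offspring by -7.59 points (limma adjusted p = 0.00152). The difference in PM offspring was -9.82 points with centred libraries and -9.97 points without PM-OVA replicate 5, both under the limit. Another intronic member of Man1c1 (chromosome 4 from 134633338 to 134634707) rose by 6.98 points (limma adjusted p = 6.14e-05) and 5.73 points (limma adjusted p = 5.19e-04).

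The sequence of both falling windows is shown in the same way, with each CpG in capitals on the plus strand, to set it beside that of the rising ones.
Gse1 window: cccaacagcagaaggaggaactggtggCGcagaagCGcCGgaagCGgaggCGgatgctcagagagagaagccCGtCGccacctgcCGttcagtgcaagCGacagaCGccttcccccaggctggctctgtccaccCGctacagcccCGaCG
Man1c1 window: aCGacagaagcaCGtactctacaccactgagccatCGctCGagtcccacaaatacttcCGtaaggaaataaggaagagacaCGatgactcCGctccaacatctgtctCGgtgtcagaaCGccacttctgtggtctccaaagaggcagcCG
They lie at chr8:120572670-120572819 and chr4:134671228-134671377 (GRCm38) and hold 13 and 10 CpGs in 150 bases. Over their whole length they hold 3.58 and 3.41 CpGs per 100 bp, beside 3.39 (Gdf5 and Gm15557) to 16.1 (Arhgap23) in the 7 rising DMRs. The falling windows are 1396 and 1467 bp long, and the rising ones 311 to 1476 bp.

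Further members that fell in both kinds of offspring, chosen after their values were seen, are given next. In Shmt2, the mitochondrial serine hydroxymethyltransferase, a member on chromosome 10 from 127519805 to 127520910 with 281 coding bp went from 91.1% ± 0.554 without to 83.1% ± 2.67 with OVA in Sham offspring (SD, n = 7 and n = 7) and from 90.9% ± 0.824 without to 82.7% ± 2.99 with OVA in PM offspring (SD, n = 7 and n = 8). The OVA and unchallenged libraries did not overlap in either kind of offspring, with unchallenged libraries at 89.8% or more and OVA libraries at 86.7% or less. The differences were -7.97 points (limma adjusted p = 1.18e-07) and -8.23 points (limma adjusted p = 3.40e-08). The member that abuts it on 1 side stayed at 90.3% ± 1.81 (SD, n = 7), 90.4% ± 1.82 (SD, n = 7), 90.9% ± 0.981 (SD, n = 7) and 90.6% ± 1.27 (SD, n = 8), with differences of 0.0560 points (limma adjusted p = 0.953) and -0.257 points (limma adjusted p = 0.820). The window on the other side, no member and far less methylated, was also lower with OVA, by -1.93 points (limma adjusted p = 0.00704) and -2.75 points (limma adjusted p = 1.21e-04).

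In Spen, a large repressor known for its part in silencing of the X chromosome, 6 members lie side by side in an exon of 8020 coding bp. One of them (chromosome 4 from 141477238 to 141478455) went from 76.9% ± 3.65 without to 69.5% ± 2.67 with OVA in Sham offspring (SD, n = 7 and n = 7) and from 76.9% ± 2.15 without to 70.1% ± 3.56 with OVA in PM offspring (SD, n = 7 and n = 8). Another (from 141473615 to 141475021) rose from 79.7% ± 2.04 without to 85.2% ± 2.22 with OVA in Sham offspring (SD, n = 7 and n = 7) and from 78.7% ± 1.93 without to 86.01% ± 2.42 with OVA in PM offspring (SD, n = 7 and n = 8). The differences were -7.35 points (limma adjusted p = 5.66e-04) and -6.86 points (limma adjusted p = 7.01e-04) for the first, and 5.45 points (limma adjusted p = 4.98e-04) and 7.27 points (limma adjusted p = 7.04e-06) for the second. The first was the one member of the 6 with a negative difference. The other 4 differed by 0.742 to 4.04 points in Sham and 0.934 to 3.51 points in PM offspring, of which the one from 141472489 to 141473614 was higher in both (4.04 points, limma adjusted p = 1.80e-06 and 3.51 points, limma adjusted p = 5.21e-06).

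**Figure D4:**
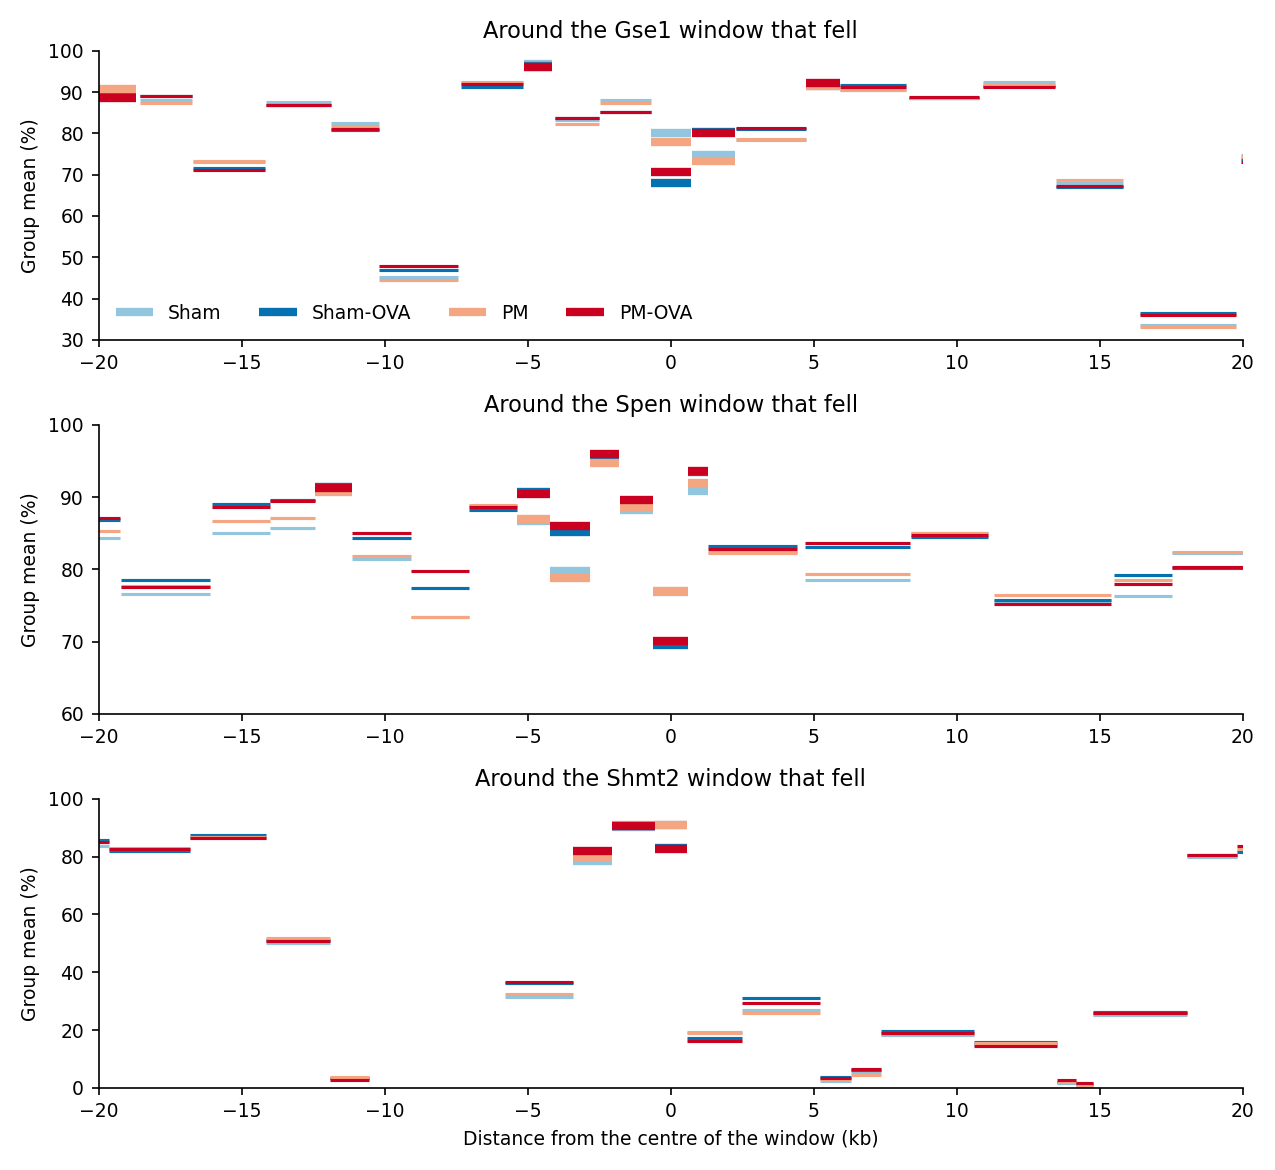
Group mean methylation (%) of each window in the table within 20 kb of the centre of a member that fell after OVA, in Gse1, Spen and Shmt2. Each bar spans a window, thick bars are members, and the vertical axes start at different values. At the centre the OVA groups lie under the unchallenged groups, and the next member on the right at Gse1 has the opposite order.

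Other falls in both kinds of offspring, likewise chosen after the values were seen, were at Tbc1d2, a GTPase-activating protein of Rab proteins (-8.68 points, limma adjusted p = 1.20e-05 and -8.75 points, limma adjusted p = 2.91e-06), Matn4, a matrilin of the extracellular matrix (-9.06 points, limma adjusted p = 0.0158 and -8.37 points, limma adjusted p = 0.0195), and Zfp13. Without PM replicate 2 the Matn4 difference in PM offspring was -7.21 points (limma adjusted p = 0.0565), and that call was lost. Zfp13 is also the zinc finger member with the largest fall by rule. Its coding window on chromosome 17 from 23576160 to 23576825 went from 96.9% ± 1.24 without to 90.04% ± 2.52 with OVA in Sham offspring (SD, n = 7 and n = 7) and from 96.9% ± 1.41 without to 88.7% ± 4.23 with OVA in PM offspring (SD, n = 7 and n = 8), with differences of -6.88 points (limma adjusted p = 2.94e-05) and -8.18 points (limma adjusted p = 3.75e-06).

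The gene lists go by the deposited gene names. Zinc finger genes had 74 members in 56 genes. In Sham offspring 19 were higher and 8 lower, with a median of 0.0580 points, and in PM offspring 15 and 11, with a median of 0.250. Over all tested windows 13.3% were higher and 22.3% lower in Sham, and 9.26 and 34.8% in PM offspring. Protocadherin genes had 7 members by these names, of which 3 passed the adjusted p in each kind of offspring, all higher. A further 7 members named Gm42416 lie along Pcdhb and Pcdhg genes and are outside this count. Their differences ran from 0.384 to 7.57 points in Sham and from -2.02 to 6.96 points in PM offspring. The one in Pcdh1, a coding window, rose by 6.49 points (limma adjusted p = 3.21e-04) and 6.76 points (limma adjusted p = 9.46e-05), whereas the one at Pcdha1 differed by -0.891 points (limma adjusted p = 0.271) and -0.240 points (limma adjusted p = 0.778). Collagen genes had 3 members, of which the intronic window of Col23a1 was lower (-2.22 points, limma adjusted p = 0.0234 and -2.24 points, limma adjusted p = 0.00797). Its call in Sham offspring was lost without Sham replicate 1, at -2.04 points (limma adjusted p = 0.0524), and without Sham replicate 4 or Sham-OVA replicate 2 or 4, at limma adjusted p-values of 0.0526 to 0.0618. Imprinted genes had 3, where that of Igf2r, a partly coding window of the receptor for insulin-like growth factor 2, differed by 1.79 points (limma adjusted p = 0.155) and 2.80 points (limma adjusted p = 0.0194), the latter being 2.28 points (limma adjusted p = 0.0522) without PM replicate 5, and a window of Rtl1, a paternally expressed gene, by -1.70 points (limma adjusted p = 0.0169) and -1.06 points (limma adjusted p = 0.125). The lists of homeobox cluster, microRNA and other tissue genes had 0 members.

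By the deposited names, germ cell genes had 10 members. Of these, 4 were higher in Sham offspring and 1 in PM offspring, beside 13.3 and 9.26% of all tested windows. The D1Pas1 start window carries the name Gm37912 and falls outside this count. It did not pass the adjusted p in either kind of offspring. Its differences were 4.33 points in Sham (limma adjusted p = 0.0811) and 0.573 points in PM (limma adjusted p = 0.753). The Ddx4 start window on chromosome 13 from 112651982 to 112652404 was the member of the list that rose in both. From lowest through median to highest, libraries were at 61.6, 87.7 and 89.2% in Sham, 87.4, 92.1 and 94.1% in Sham-OVA, 81.8, 85.3 and 88.8% in PM and at 88.2, 91.2 and 94.9% in PM-OVA. In both kinds of offspring the ranges with and without OVA overlapped. With OVA, Sham offspring differed by 7.82 points (log2 ratio 0.91, SE 0.25, limma adjusted p = 0.00578), and PM offspring by 5.54 points (limma adjusted p = 0.0111). The lowest Sham value, 61.6%, was that of Sham replicate 1, and without it the difference in Sham offspring was 4.12 points (limma adjusted p = 0.00839). The other windows that rose in Sham offspring were those of Tdrd1 (7.02 points, limma adjusted p = 0.00833), Sycp2 (4.56 points, limma adjusted p = 0.00132) and Mov10l1 (2.14 points, limma adjusted p = 0.0208). Without Sham replicate 6 the Mov10l1 window differed by 1.81 points (limma adjusted p = 0.0540), and its call was lost. In PM offspring the windows of Tdrd1, Sycp2 and Mov10l1 differed by 0.938 points (limma adjusted p = 0.756), 0.329 points (limma adjusted p = 0.841) and 0.742 points (limma adjusted p = 0.431), and their interactions had limma adjusted p-values of 0.663, 0.575 and 0.760, so a difference between the kinds of offspring was not shown. The Dazl start window averaged 96.4% ± 1.66 (SD, n = 7) in Sham, against 97.4% ± 0.762 (SD, n = 7) after OVA. In PM it averaged 97.3% ± 1.34 (SD, n = 7), against 97.6% ± 1.62 (SD, n = 8) after OVA, and all 4 groups overlapped.

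Maternal exposure was tested in the same fit. No member was a DMR by limma for PM without OVA, for PM with OVA or for the interaction, as no window of the table was. At an unadjusted p under 0.05 there were 94 members without OVA (8.05%, background 5.79%), 78 with OVA (6.68%, background 5.96%) and 91 for the interaction (7.79%, background 7.4%). The smallest p-values belonged to intronic windows of repeat family A. In Col4a4, a chain of basement membrane collagen, PM exceeded Sham by 5.22 points (limma adjusted p = 0.696) and the libraries overlapped, at 85.9 to 98.8% in Sham and 96.9 to 100% in PM. In Cwf19l2, PM-OVA exceeded Sham-OVA by 2.35 points (limma adjusted p = 0.676), at 97.3 to 99.9% against 93.4 to 97.8%. In Tiam1, a guanine nucleotide exchange factor for Rac, the OVA effect in PM offspring, less that in Sham offspring, was -4.48 points (limma adjusted p = 0.529).

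A few members varied widely between animals of the same group. Within the 14 unchallenged libraries the SD around the group mean had a median of 1.60 points, a 90th percentile of 3.39 and a maximum of 18.2, and it exceeded 5 points in 28 members. Of these, 16 were repeat-masked (4.36% of that kind), against 2 mostly coding (0.460%), 1 partly coding (0.481%), 3 at gene starts (3.70%) and 6 of no other kind (7.79%). The Ddx4 start window is among them, with an SD of 7.25 points beside its OVA difference of 7.82 points in Sham offspring, which was 4.12 points (limma adjusted p = 0.00839) without Sham replicate 1. Family B held 8 of the 28 and family A held 4.

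The widest spread was in Rnf157, a ubiquitin ligase gene, in an intronic window of family A on chromosome 11 from 116389771 to 116390969, whose sequence around the shared word is printed above. Lowest, median and highest library values were 43.3, 78.1 and 94.5% in Sham, 60.6, 73.9 and 93.5% in Sham-OVA, 62.9, 83.9 and 97.8% in PM and at 55.4, 63.03 and 89.1% in PM-OVA. High and low animals stood side by side in every group, and the OVA differences of 3.15 points (limma adjusted p = 0.968) and -10.2 points (limma adjusted p = 0.203) did not pass the test. The first was 6.44 points (limma adjusted p = 0.757) when Sham replicate 1 was left out. Mecom, a zinc finger transcription factor of blood stem cells, held an intronic window of family B at 64.9 to 88.8% in Sham and 55.9 to 95.2% in PM-OVA. For comparison, the median member of family A had an unchallenged SD of 1.60 points. A pair of adjacent windows of Shq1 were also among the 20 most variable, with SDs of 7.91 and 7.82 points. Litter and genotype are not given for the libraries, and their part was not tested.

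**Figure D5:**
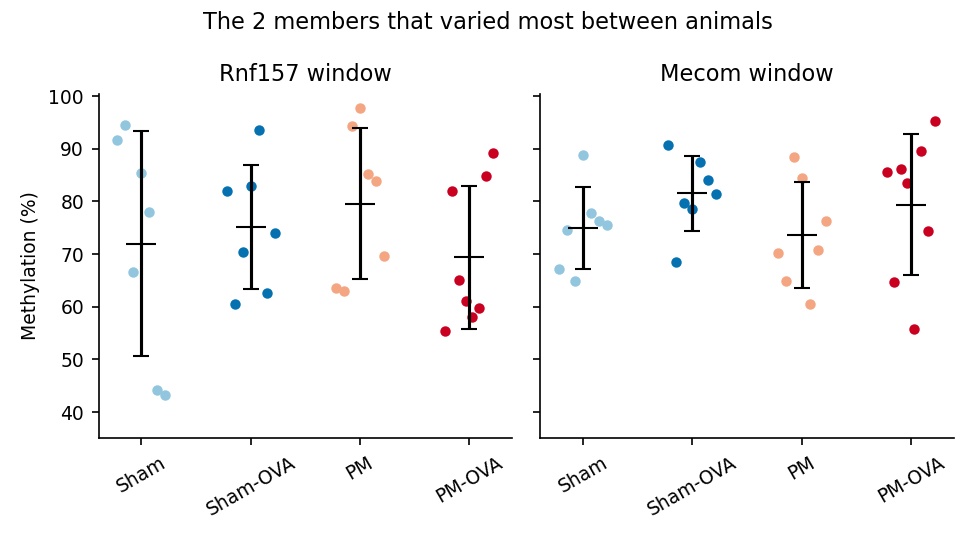
Methylation (%) of the 2 members with the largest SD over the unchallenged libraries, in each of the 29 libraries (points, by group), with the group mean and SD in black. The Rnf157 window ranges from 43.3 to 94.5% among the 7 Sham animals alone.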

How the data were processed

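Enzymatic methyl-seq (NEBNext) of lung DNA was deposited as percent methylation per window. By the methods given, the authors trimmed reads with Trim Galore, mapped and called them with the DRAGEN methylation pipeline on GRCm38, and in SeqMonk averaged the percent per base over windows of 100 CpG cytosines that overlap genes. The study describes high genome-wide coverage and a minimum of informative CpGs per window, but the table holds no read counts or coverage, so the depth of each window is unknown, no interval for counting error is given, and windows of few reads cannot be told from deeply read ones.

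Percentages were turned into log2((percent + 1)/(101 - percent)) and tested with limma 3.58.1 (R 4.3.3), 2-sided, with the 4 groups as levels, on the 259167 windows with at least 3 values in each group. Benjamini-Hochberg adjustment covered all of these for each contrast, and differences are those of group means in percentage points. The OVA comparisons in Sham and in PM contrast different libraries but share the same estimate of the spread, so their p-values are not independent. Annotation was GENCODE M21, and promoters came from RefSeq (GRCm38). The fit was checked on simulated data (258503 windows), where 200 windows were lowered in Sham-OVA by 12 to 20 points. Of these, 190 were recovered for OVA in Sham and 167 for the interaction. Rises and smaller changes were not simulated, so recovery of these is unknown. Same-numbered libraries of different groups did not deviate together, so no replicate block was used.

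The members and the gene lists were chosen with earlier results of these data known. Windows were named by rule. These were the DMR members, the smallest p of the other contrasts, the levels nearest the threshold and highest, the densest, the most variable, both ends of each list, and the germ cell gene starts. Any other named window was chosen after its values were seen. Alternatives were another offset, the percent scale, centring of libraries, complete windows, a replicate block, other thresholds on p, difference, length and level, members chosen on the other unchallenged group, and leaving out each library. Some items named by this rule are not reported here.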

Additional observations from a re-analysis of the deposited data

Results flagged for a closer look

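Among the windows named by rule, each group of libraries was examined for a highest or lowest library far from the rest (Dixon's test at 95%). Of 156 groups tested 11 had one, where chance gives about 1 in 20.

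At gene starts of germ cell genes, Sham replicate 1 stood at 61.6% in the Ddx4 window, beside 84.4 to 89.2% in the other Sham libraries. PM replicate 3 stood at 80.4% in the Fkbp6 window, beside 90.2 to 93.4%. Sham-OVA replicate 4 stood at 70.4% in the Tdrd1 window, beside 77.0 to 81.8%, and PM-OVA replicate 2 at 82.8% in the Mael window, beside 86.6 to 88.0%.

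Of the DMR windows, that of Kdm6b had PM replicate 4 at 77.3%, beside 67.7 to 71.5%, and that of Gdf5 and Gm15557 had Sham replicate 5 at 62.5%, beside 69.8 to 72.7%. In Shroom3, Sham replicate 1 stood at 88.3%, beside 91.7 to 93.1%. The others were close to full methylation. In Cwf19l2, Sham-OVA replicate 3 stood at 93.4%, beside 96.1 to 97.8%, and PM-OVA replicate 6 at 97.3%, beside 98.8 to 99.9%. In Rsrc1, PM-OVA replicate 8 stood at 96.3%, beside 99.2 to 100%, and in Rapgef6, Sham-OVA replicate 5 at 93.9%, beside 97.8 to 99.7%. The causes were not tested.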

How the results depend on the processing

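The count of DMR members was 7 in Sham and 3 in PM offspring with an offset of 0.1 points, on the percent scale, over complete windows and with members chosen on the other unchallenged group, and 10 and 3 with centred libraries. It was 0 and 0 at an adjusted p of 1e-06 and with the level limit at 80%, 90 and 45 at a minimum of 5 points, and 5 and 2 with the length limit at 1000 bp. The level limit left 1024 members and the length limit 324. Of all 259167 tested windows, 15435 and 15259 were called at 5 points on the deposited scale. At 10 points the counts over all windows were 2008 and 1513. Leaving out 1 library in turn gave 5 (without Sham replicate 1) to 12 (without Sham-OVA replicate 5) in Sham and 2 to 4 in PM offspring, with 11 without Sham-OVA replicate 2. The median difference over the members went from 0.119 points in Sham offspring to 0.515 with centred libraries, 0.582 with the length limit at 1000 bp and -0.0491 with the level limit at 80%, and from -0.208 points in PM offspring to 0.771, 0.144 and -0.347, so its sign rests on these settings. With 1 library left out in turn the medians ran from 0.00460 to 0.294 and from -0.276 to -0.133 points. The maternal exposure contrasts, without and with OVA, and the interaction gave 0 members under every alternative that was run. With the replicate block, where PM-OVA replicate 8 has no partner and adds nothing, the counts were 7 and 3, and no call on the 9 DMR windows changed. Same-numbered libraries of different groups had correlations of -0.0705 to 0.130 (median 0.0174, 42 pairs) by the replicate numbers of the labels and -0.0444 to 0.130 (median 0.0246, 36 pairs) by the numbers in the library names, which differ, so neither paired the samples. The causes were not tested. The unknown depth per window limits how far 1 window of 1 library can be read.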

Other observations

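Some CpG-dense methylated windows lay in genes that make no protein. A pseudogene overlapped 60 members (5.14%), against 0.798% of the dense windows at or under 20% and 4.52% of those between 20 and 70%. Overlap with more than 1 annotated gene was found for 157 members (13.4%), and for these the gene that the deposited table names need not be the one whose exon is measured.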
